A study of Mus musculus with 6 samples.

Results

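The Eya genes (Eya1, Eya2, Eya3 and Eya4) and the Dach genes (Dach1 and Dach2) make up the mouse members of both families, and these 6 genes were taken by symbol out of the 50686 gene identifiers in the count tables. They were chosen by name and not by any measured value. Their transcript levels were measured by RNASeq, and their H3K27me3, the repressive histone mark laid down by Polycomb repressive complex PRC2, by ChIPSeq.

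Eya and Dach proteins belong to the retinal determination network, a set of nuclear regulators first worked out in the fly eye, where Pax genes, sine oculis homeobox genes, Eya and Dach genes act on one another. Eya proteins do not bind DNA by themselves but are carried to it by sine oculis proteins, for which they act as coactivators, and they also have tyrosine phosphatase activity, with the histone variant H2A.X among the substrates. Dach proteins are relatives of the Ski oncoprotein and mostly act as corepressors at their targets. In mammals the network is best known for its part in the eye, ear, kidney and muscle.

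The cells were primary neural stem cells (NSC) that the study cultured from the brains of E16.5 mouse embryos. NSC were wild type, and NSC Bmi1Over carried STOPFloxBmi1;NestinCre, a Bmi1 transgene freed by a Cre that is driven from the neural Nestin promoter, so that only cells which had expressed Cre would carry the active transgene. RNASeq held 2 libraries per group. ChIPSeq was run by the study on 2 replicates per group, of which it discarded the weaker and kept 1 library per group, so the peak lists each come from 1 library. The mGIC samples named in the series design were not analysed here. The study describes the NSC replicates as biologically independent cultures, while the labels give a replicate number alone and name no embryo, so p-values measure the spread between these libraries.

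Reads counted on genes ranged from 18112100 to 61353076 per library, and the deepest and the shallowest library were both labelled NSC Bmi1Over. Bmi1 itself was counted at 133.3 and 123.5 counts per 1000000 reads (CPM) in NSC and at 118.6 and 112.6 CPM in the libraries labelled NSC Bmi1Over, so the label was not borne out by the transcript count of its gene. Whether reads from the transgene would be counted in the Bmi1 gene model is not given in the sources used here. The summed level of 9 neural stem cell markers lay between 5961 and 6667 CPM in the 4 libraries, with 0 of the 9 called, 2 with an unadjusted p under 0.05, 6 whose groups did not overlap and a median log2 fold change of -0.18, beside 2.15% called, 24.2% with such a p, 59% not overlapping and a median of -0.01 over all genes tested. Markers of muscle summed to at most 0.349 CPM, of mesenchyme to at most 1.07 CPM, of microglia to at most 3.10 CPM, of endothelium to at most 5.53 CPM and of erythroid cells to at most 0.602 CPM. The 8 eye field and retina markers summed to between 74.5 and 81.9 CPM, most of it from Lhx2, at 56.6 and 58.7 CPM in NSC and 41.8 and 50.8 CPM in the libraries labelled NSC Bmi1Over, and from Otx2, at 19.6 and 10.0 CPM and at 25.7 and 16.2 CPM, while Rax and Crx were at 3 reads or fewer in every library. Beside the same 2.15% of all genes, 1 of the 5 neuron markers tested was called. It was Syt1, which rose (log2 fold change 2.18, edgeR adjusted p 0.043), but it was not called when edgeR took DESeq2 size factors. The median of the 5 was -0.07. 1 of the 5 astrocyte markers was also called, Aldh1l1, which fell by 0.86 on the log2 scale (edgeR adjusted p 0.044), the median was -0.06, and the list summed to 219 and 177 CPM in NSC and to 170 and 149 CPM in the libraries labelled NSC Bmi1Over. In a mixed culture, fewer cells expressing a gene and less RNA per cell cannot be told apart.

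Before the values, sequences at RefSeq starts of 4 of the 6 genes are shown, because none lay under a called H3K27me3 peak. Signal outside the called peaks was not examined. The sequences come from RefSeq promoters of GRCm38.p6, which gave an entry for Eya3, Eya4, Dach1 and Dach2 and none for Eya1 and Eya2. Only bases that lie outside annotated exons are printed, 5′ to 3′ on the gene's strand, with each CG dinucleotide (CpG) in capitals, since PRC2 in mammals is known to be drawn to unmethylated CpG-rich DNA. The stretches are chr4:132638796-132638986 on the plus strand for Eya3, chr10:23350137-23350193 on the minus strand for Eya4, chr14:98169766-98170015 on the minus strand for Dach1 and chrX:113297260-113297509 on the plus strand for Dach2. The stretch of Eya4 lies at a start inside the gene as GENCODE annotates it, downstream of the 5′ end from which peak offsets are given here.
Eya3: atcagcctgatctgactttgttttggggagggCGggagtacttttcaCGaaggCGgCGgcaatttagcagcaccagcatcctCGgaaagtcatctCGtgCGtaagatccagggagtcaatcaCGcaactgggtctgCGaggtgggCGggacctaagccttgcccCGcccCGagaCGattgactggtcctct
Eya4: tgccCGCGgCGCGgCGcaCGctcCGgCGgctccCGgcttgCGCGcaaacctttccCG
Dach1: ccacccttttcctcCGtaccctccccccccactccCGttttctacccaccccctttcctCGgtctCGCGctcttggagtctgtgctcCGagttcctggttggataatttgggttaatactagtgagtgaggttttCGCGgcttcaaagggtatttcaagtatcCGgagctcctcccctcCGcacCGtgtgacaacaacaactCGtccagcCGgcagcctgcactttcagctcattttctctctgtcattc
Dach2: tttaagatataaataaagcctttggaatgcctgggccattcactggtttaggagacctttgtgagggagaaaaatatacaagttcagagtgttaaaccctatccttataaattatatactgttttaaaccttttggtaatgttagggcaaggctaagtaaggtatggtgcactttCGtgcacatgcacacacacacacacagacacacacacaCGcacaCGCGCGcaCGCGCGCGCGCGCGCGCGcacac

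The stretch of Eya4 held 12 CpG in 57 bases, that of Eya3 13 in 191 bases, and that of Dach1 13 in 250 bases. Dach2 had 14 CpG, which sit almost wholly in a CA and CG repeat at the 3′ end of its stretch. Over the 250 bases before the RefSeq transcription start site (TSS), Eya3, Eya4 and Dach1 reached both a GC content of 50% and an observed to expected CpG ratio of 0.6, as did 31.0% of all 32851 promoters in the table. By GENCODE, 59 of these bases at Eya3 and 193 and 246 at the 2 entries of Eya4 are exonic, so much of the Eya4 sequence counted is transcribed. Dach2 did not in either of its 2 entries. The stretch printed had a GC content of 45.6%, and the other, at chrX:113298006-113298255, had 67.6% with a CpG ratio of 0.462. The median promoter of the table held 6 CpG.

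The 6 genes were all transcribed, at levels that spanned a wide range. Levels between genes are compared on the per-length scale, as CPM per kilobase of annotated exon. Eya3 was the highest, at 10.4 and 10.9 in NSC. Eya1 followed at 5.15 and 5.17, Eya2 at 2.10 and 2.18, and Eya4 at 1.43 and 1.30. Both Dach genes lay below every Eya gene in NSC, Dach1 at 0.745 and 0.627 and Dach2 at 0.231 and 0.265. No neighbours in this order overlapped between the NSC libraries.

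In the libraries labelled NSC Bmi1Over the order was kept in replicate 2 but not in replicate 1, where Eya2 stood at 4.38 and Eya1 at 2.44 CPM per kilobase, so that Eya1 and Eya2 could not be ordered in that group. Percentiles were taken over the protein-coding genes with a read in any library. The mean of the 4 libraries placed Eya3 at percentile 73.4, Eya1 at 54.2 and Eya2 at 46.0. Eya4 stood at percentile 38.7, Dach1 at 32.9 and Dach2 at 26.4. Exon length was taken over all annotated transcripts, so a gene expressed from a short isoform is placed too low.

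**Figure D1:**
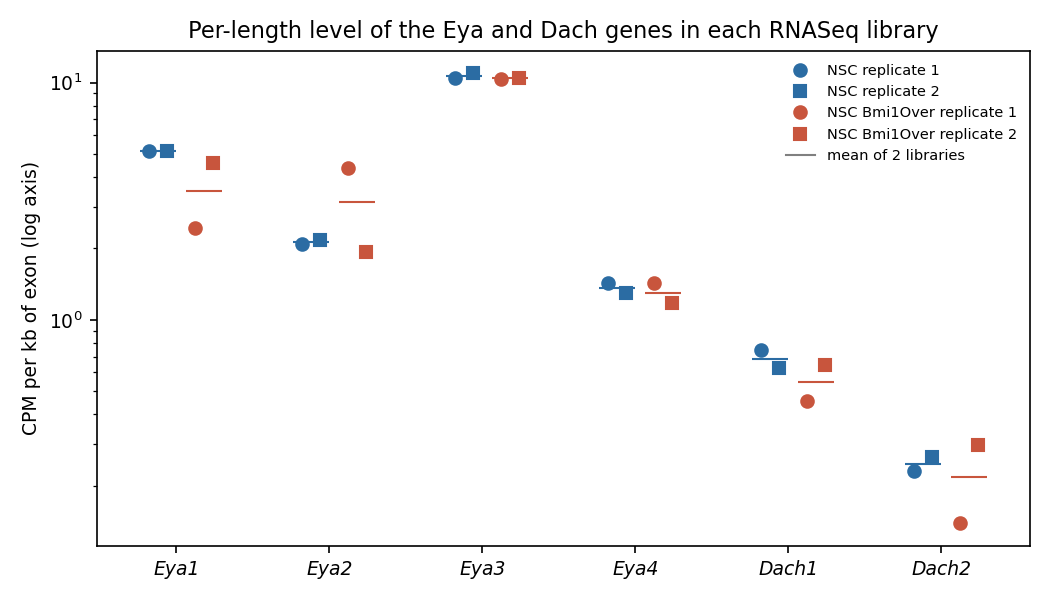
CPM per kilobase of exon (log axis) for each Eya and Dach gene in the 2 NSC libraries (blue) and the 2 libraries labelled NSC Bmi1Over (red), with circles for replicate 1, squares for replicate 2 and a line at each mean. The points of Eya3 lie between 10.4 and 10.9, while the red points of Eya1, Eya2 and Dach2 stand far apart.

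Eya3 supplied between 54.6% and 57.7% of the summed per-length Eya signal in every library. The part taken by Eya1 was 26.9% and 26.4% in NSC, 13.1% in NSC Bmi1Over replicate 1 and 25.2% in replicate 2. Eya2 took the share in the opposite order, with 11.0% and 11.1% in NSC, 23.5% in NSC Bmi1Over replicate 1 and 10.6% in replicate 2. Eya4 held between 6.51% and 7.66%. Of the summed Dach signal, Dach1 gave between 68.5% and 76.5%.

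The comparison of the libraries labelled NSC Bmi1Over with NSC asks whether the transgene goes with a change in expression. None of the 6 genes was called by edgeR's quasi-likelihood test at a Benjamini-Hochberg adjusted p under 0.05, none had an unadjusted p under 0.05, and DESeq2 called none either. Over all 15521 genes tested, 2.15% were called and 24.2% had an unadjusted p under 0.05. The median log2 fold change of the 6 genes was -0.09, beside -0.01 over all genes tested.

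Eya1, whose loss in humans causes branchio-oto-renal syndrome, was counted at 40.2 and 40.3 CPM in NSC, at 19.1 CPM in NSC Bmi1Over replicate 1 and at 35.6 CPM in replicate 2. The NSC pair was almost equal, and both libraries labelled NSC Bmi1Over lay below it, the first far below. The log2 fold change was -0.54 (SE 0.24, n = 2 per group), with an adjusted p of 0.220 in edgeR's quasi-likelihood test. Eya1 was the one member of the 6 whose groups did not overlap, as 59% of all genes tested did not. Without NSC Bmi1Over replicate 2 the log2 fold change was -1.08 with an edgeR adjusted p of 0.0128, and without replicate 1 it was -0.18. Without a filter beyond 1 read, which brought in more low-count genes, it was -0.56 with an edgeR adjusted p of 0.00704. With 1 library left in a group, such a fit takes all of the spread from the other group, here the near-equal NSC pair, and assumes that the lone library varies alike.

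Eya2, a coactivator best known from muscle precursors, was counted at 6.21 and 6.45 CPM in NSC, at 13.0 CPM in NSC Bmi1Over replicate 1 and at 5.70 CPM in replicate 2. One library labelled NSC Bmi1Over was thus above NSC and the other below. The log2 fold change was 0.52 (SE 0.35, n = 2 per group), with an adjusted p of 0.375 in edgeR's quasi-likelihood test. It was 1.04, with an edgeR adjusted p of 0.0451, without NSC Bmi1Over replicate 2, where the spread again comes from the NSC pair alone, and it turned to -0.15 without replicate 1.

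Eya3, the most widely expressed Eya gene, was counted at 59.0 and 61.8 CPM in NSC and at 58.6 and 59.1 CPM in the libraries labelled NSC Bmi1Over. The 4 values were within a narrow band and the groups overlapped. The log2 fold change was -0.04 (SE 0.12, n = 2 per group), with an adjusted p of 0.858 in edgeR's quasi-likelihood test.

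Eya4, mutated in a form of human deafness, was counted at 13.4 and 12.2 CPM in NSC and at 13.4 and 11.1 CPM in the libraries labelled NSC Bmi1Over. The groups overlapped. The log2 fold change was -0.08 (SE 0.17, n = 2 per group), with an adjusted p of 0.807 in edgeR's quasi-likelihood test.

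Dach1 was counted at 5.45 and 4.59 CPM in NSC and at 3.31 and 4.71 CPM in the libraries labelled NSC Bmi1Over. Only replicate 1 of the latter lay outside the range of NSC. The log2 fold change was -0.30 (SE 0.25, n = 2 per group), with an adjusted p of 0.483 in edgeR's quasi-likelihood test. It was -0.60 without NSC Bmi1Over replicate 2 and -0.10 without replicate 1, with edgeR adjusted p of 0.356 and 0.800.

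Dach2, which is X-linked, was the lowest of the 6, at 2.28 and 2.61 CPM in NSC and at 1.37 and 2.92 CPM in the libraries labelled NSC Bmi1Over. Its libraries held 72, 66, 24 and 167 reads. The library labelled NSC Bmi1Over replicate 1 was the lowest of the 4 and replicate 2 the highest. The log2 fold change was -0.10 (SE 0.35, n = 2 per group), with an adjusted p of 0.878 in edgeR's quasi-likelihood test.

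**Figure D2:**
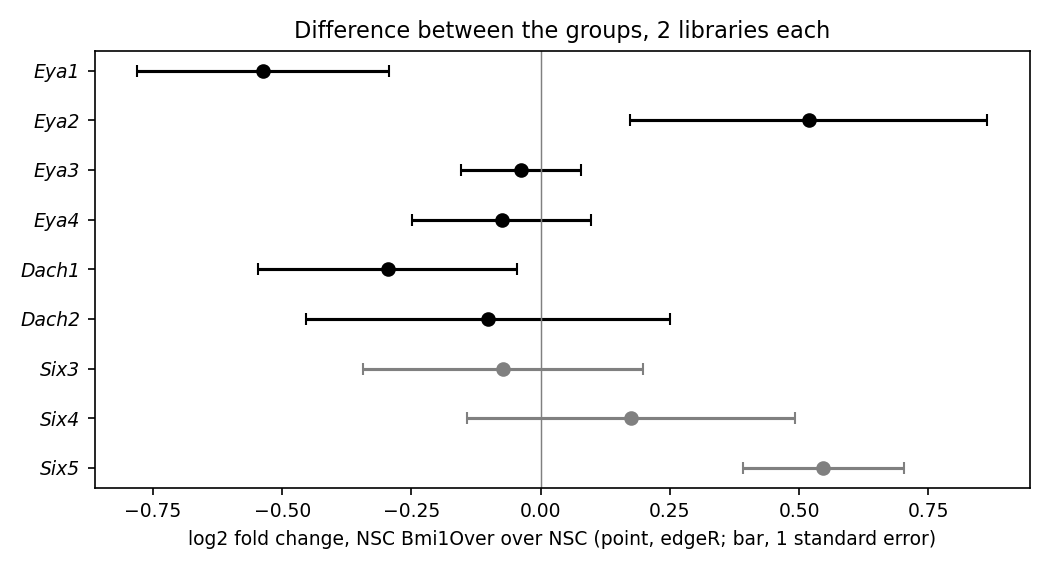
Log2 fold change of the libraries labelled NSC Bmi1Over over NSC from edgeR (points) with 1 standard error (bars) for the Eya and Dach genes (black) and for Six3, Six4 and Six5 (grey), the sine oculis genes that could be tested. Eya1 stands at -0.54 and Eya2 at 0.52, and the bar of Eya3 is the shortest of the 6 black bars.

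For each of the 6 genes but Eya3, the 2 libraries labelled NSC Bmi1Over differed more from each other than the groups did. Replicate 2 had 1.87 times the CPM of replicate 1 for Eya1, 2.13 times for Dach2 and 1.42 times for Dach1, but 0.440 times for Eya2. In NSC the larger of the 2 values was 1.00 times the smaller for Eya1 and 1.04 times for Eya2. On the log2(CPM + 0.5) scale, a gap between the libraries labelled NSC Bmi1Over at least as large as that of Eya2 was found in 0.528% of the genes tested, as that of Eya1 in 1.49% and as that of Dach2 in 1.63%. For Dach1 this share was 13.7%, for Eya4 38.1% and for Eya3 96.8%.

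**Figure D3:**
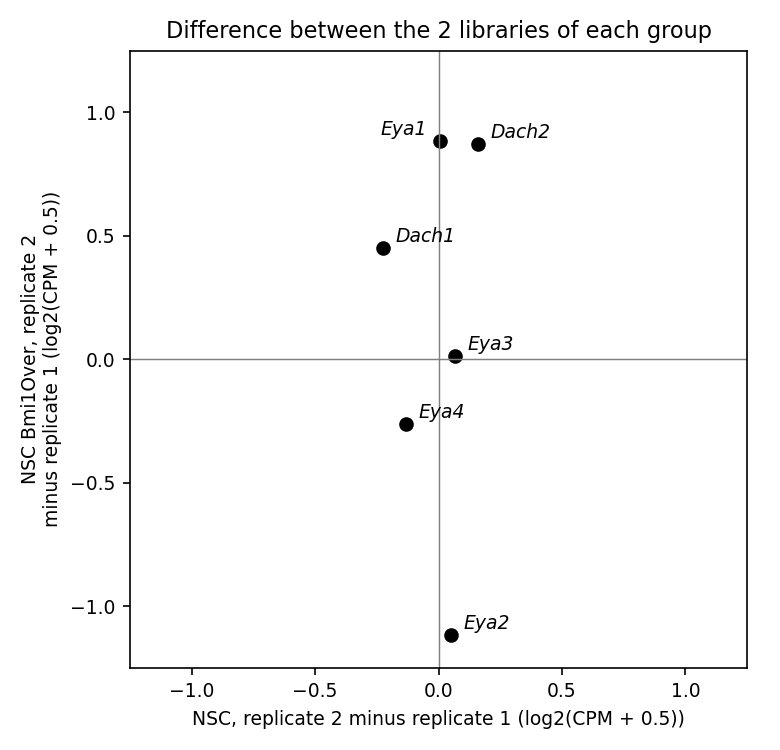
Difference between replicate 2 and replicate 1 in log2(CPM + 0.5), within NSC (horizontal axis) and within NSC Bmi1Over (vertical axis), with 1 point per gene. The points of Eya1 and Dach2, at 0.88 and 0.87 on the vertical axis, and of Eya2, at -1.12, are far from 0 there and close to it on the horizontal axis.

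Some lineage markers, 3 of them picked out after their values were seen, were also low in NSC Bmi1Over replicate 1. In the order NSC replicates 1 and 2 and NSC Bmi1Over replicates 1 and 2, Sox10, a regulator of the oligodendrocyte lineage, was counted at 2.50, 1.58, 0.286 and 4.64 CPM. Pdgfra, a receptor on oligodendrocyte precursors, was counted at 27.9, 34.4, 16.5 and 44.5 CPM, and Dcx, a marker of young neurons, at 9.09, 7.79, 3.83 and 10.2 CPM. All 3 were lowest in NSC Bmi1Over replicate 1 and highest in replicate 2, as Dach2 was. Other members of the same lists did not follow, such as Olig2 at 825, 931, 1007 and 982 CPM and Map2 at 919, 879, 919 and 788 CPM. The whole lists did not show it either, since the 6 oligodendrocyte lineage markers summed to 865, 975, 1031 and 1042 CPM and the 6 neuron markers to 964, 940, 1008 and 921 CPM in the same order. The part of these cells in the Eya and Dach values was not tested.

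The genes most like Eya2 in pattern over the 4 libraries, among 12251 protein-coding genes, were Palmd, Pcp4l1 and Mylk. Likeness was the root mean square difference of centred log2(CPM + 0.5), which was 0.033 for Palmd, 0.088 for Pcp4l1 and 0.097 for Mylk. Palmd was counted at 8.40 and 9.22 CPM in NSC and at 17.3 and 7.96 CPM in the libraries labelled NSC Bmi1Over, a likeness that the choice of the gene fixes. For Eya3 the nearest genes were Eif4enif1, Ddx39b and Matr3, at 0.0052, 0.0061 and 0.0072, all of which had near-equal values in the 4 libraries.

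The sine oculis genes encode DNA-binding proteins, among them the partners of Eya, and some of these genes were close to silent. Six2 was counted at 1 read and Six6 at 2 reads in NSC Bmi1Over replicate 2, and both at 0 reads in the other libraries. Six4 was low, at 1.39 and 1.94 CPM in NSC and 1.49 and 2.13 CPM in the libraries labelled NSC Bmi1Over. Six3, a forebrain and eye field regulator, was counted at 14.0 and 7.67 CPM in NSC and 11.3 and 9.57 CPM in the libraries labelled NSC Bmi1Over. For Six3 the log2 fold change was -0.07, with an adjusted p of 0.887 in edgeR's quasi-likelihood test.

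Six5 was the highest sine oculis gene per length, with 13.0 and 11.3 CPM in NSC and 18.3 and 17.3 CPM in the libraries labelled NSC Bmi1Over. Its groups did not overlap, and the log2 fold change of 0.55 (SE 0.16) missed the threshold, with an adjusted p of 0.090 in edgeR's quasi-likelihood test. In all, 29 other genes of the network were listed: 6 sine oculis genes, 8 Pax and other regulators, 8 genes of the Ski family or of Dach's corepressor partners, and 7 Eya substrates or targets. Of the 29, 21 could be tested, 0 were called in either direction and 4 had an unadjusted p under 0.05, beside 2.15% and 24.2% of all genes tested. The groups did not overlap for 10 of the 21, beside 59% of all genes, and their median log2 fold change was -0.07.

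Besides Six5, the 4 included Slc12a2, a chloride cotransporter gene listed among the targets, with a log2 fold change of 0.59 and an edgeR adjusted p of 0.079. Tshz1, a zinc finger gene of the teashirt family, had -0.36 with an edgeR adjusted p of 0.128. Tshz2 of the same family had -0.91 with an edgeR adjusted p of 0.183. Pax6, which stands at the head of the network in the eye, was counted at 38.6 and 36.0 CPM in NSC and at 31.9 and 29.6 CPM in the libraries labelled NSC Bmi1Over, with a log2 fold change of -0.28 and an edgeR adjusted p of 0.213. DESeq2 called Slc12a2 among the 29.

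H3K27me3 divided the 6 genes. Eya1 and Eya3 had no peak in either list, neither within 5 kb of an annotated TSS nor in the gene body. Eya2, Eya4 and Dach1 had promoter peaks, within 5 kb of a TSS, in both lists, and Dach2 in the NSC list alone. With 4 of 6 genes in NSC and 3 of 6 in NSC Bmi1Over, this stood beside 8.89% and 4.44% of 22028 protein-coding genes. In the gene body, the 4 genes had a peak in each list, beside 8.76% of protein-coding genes in NSC and 4.62% in NSC Bmi1Over. Long genes had such a peak more often, and Eya4, Dach1 and Dach2 each exceed 200 kb: among autosomal protein-coding genes of at least 200 kb the share was 23.0% in NSC and 13.0% in NSC Bmi1Over, and among X-linked ones 97.8% and 77.8%. Each list rests on 1 library, so differences between them had no replicate check and no test.

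At Eya2, on chromosome 2 (165595032 to 165771727, plus strand), the NSC list held a peak of 916 bp that ended 73 bp before the 5′ end of the gene. A second, of 1626 bp and a fold enrichment of 4.97 over the MACS2 background, began 152 bp after the 5′ end and took in exon and intron, and the third, of 688 bp, lay in the intron. The start site itself was thus in no peak. The NSC Bmi1Over list held 2 peaks, of 401 and 249 bp, each inside the area of an NSC peak and on either side of the start. The second of them had a fold enrichment of 5.59, the highest of any peak at the 6 genes.

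At Dach1, on chromosome 14 (97786853 to 98169765, minus strand), the NSC list held 10 peaks at offsets from -3383 to 7513 bp of the 5′ end. The nearest upstream peak ended 321 bp before the 5′ end, and the nearest downstream peak began 453 bp after it, so the CpG-rich stretch printed for Dach1 had no peak over it. The NSC Bmi1Over list held 3 peaks, of 209 to 380 bp, and all 3 overlapped NSC peaks. The upstream one of 298 bp, at chr14:98171278-98171575 and printed here on the plus strand because it marks one of the places called in both lists, had a single CpG and a GC content of 29.5%.
Dach1 peak: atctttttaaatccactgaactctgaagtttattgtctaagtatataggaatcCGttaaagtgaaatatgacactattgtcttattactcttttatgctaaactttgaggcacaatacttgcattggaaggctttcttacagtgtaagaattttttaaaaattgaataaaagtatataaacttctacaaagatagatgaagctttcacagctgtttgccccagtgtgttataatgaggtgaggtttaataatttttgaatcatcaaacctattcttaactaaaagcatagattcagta

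That composition differs from the stretch at the start of Dach1, with a GC content of 54.8%. The median GC content of autosomal peaks in the NSC Bmi1Over list was 46.1%. Within the NSC peaks of Dach1 the GC content ran from 29.3% in the intron to 66.0% in an exon.

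At Eya4, on chromosome 10 (23102963 to 23350786, minus strand), the NSC list held 3 intronic peaks of 207, 406 and 1203 bp, the nearest of them 1006 bp from a TSS. The single NSC Bmi1Over peak was 200 bp long, lay 4740 bp into the gene and overlapped none of the NSC peaks. As at Dach1, the CpG-rich stretch printed for Eya4 lay under no peak.

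**Figure D4:**
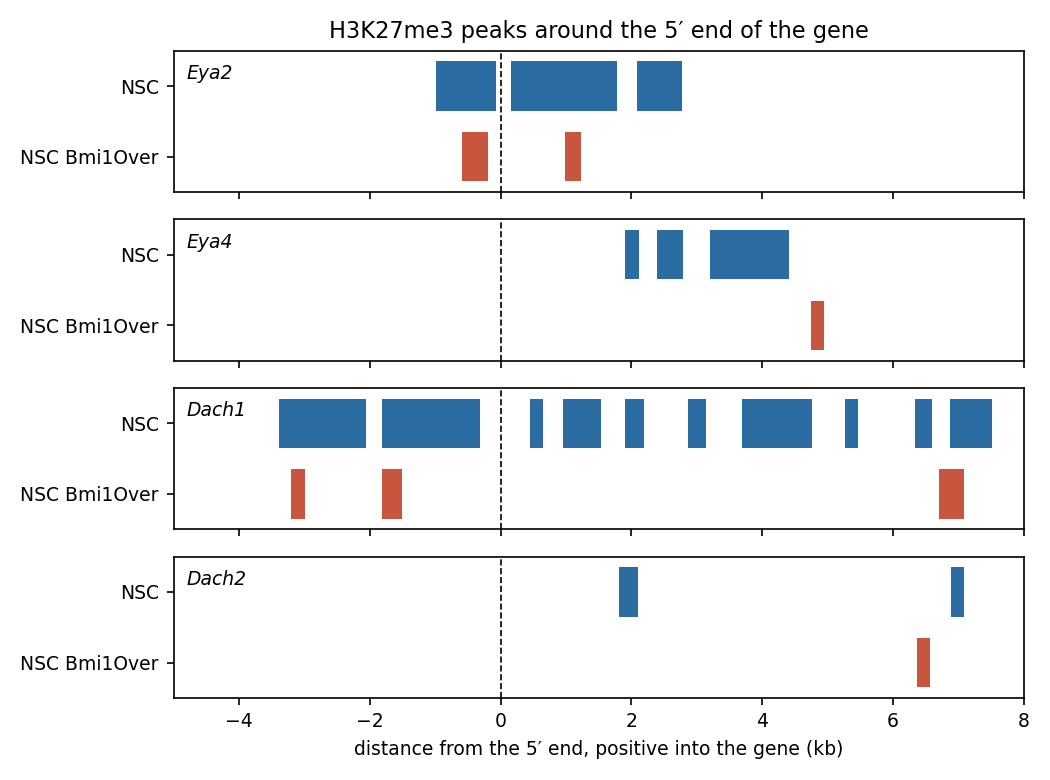
H3K27me3 peaks in the NSC (blue) and NSC Bmi1Over (red) lists from 5 kb before to 8 kb after the 5′ end (dashed line) of Eya2, Eya4, Dach1 and Dach2, with distance in kb along the gene's own direction and no meaning to the height of the boxes. No box crosses the 5′ end, and for Eya2 and Dach1 boxes stand on both sides of it.

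Dach2, on the X chromosome (113297510 to 113836386, plus strand), showed another arrangement. Its 8 NSC and 4 NSC Bmi1Over peaks were 200 to 295 bp long, lay in introns and were scattered over a gene of 538877 bp. Only 1 place was called in both lists. It is printed for that reason, as the NSC peak chrX:113828779-113828978 on the plus strand. Its fold enrichment, 3.74 in NSC and 4.06 in NSC Bmi1Over, was the lowest of the gene's peaks in each list. Its length of 200 bp was the shortest of any peak in either list.
Dach2 peak: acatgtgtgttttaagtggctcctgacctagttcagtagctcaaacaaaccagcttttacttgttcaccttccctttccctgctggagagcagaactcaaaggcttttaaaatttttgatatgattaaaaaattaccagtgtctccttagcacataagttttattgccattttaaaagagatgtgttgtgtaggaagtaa

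This stretch contained no CpG and had a GC content of 36.5%. The X chromosome as a whole held 26.6% of NSC peaks, or 20.2 per Mb beside 3.83 per Mb on autosomes, and 13.9% of NSC Bmi1Over peaks, or 5.53 per Mb beside 2.35. Dach2 had 14.8 NSC peaks per Mb, below the median of 27.04 over 45 X-linked protein-coding genes of at least 200 kb. In the NSC Bmi1Over list it had 7.42 per Mb, above the median of 4.49. A peak was present in 44 of those 45 genes in NSC and in 35 in NSC Bmi1Over.

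The peaks at the 4 marked genes were fewer and covered less sequence in the NSC Bmi1Over list, as was so for that list as a whole. They numbered 24 in NSC and 10 in NSC Bmi1Over, or 41.7% as many, beside 52.5% over the whole lists of 12982 and 6810 peaks. They covered 13130 bp and 2537 bp, or 19.3% as much, beside 41.6% over the whole lists. The median peak at these genes was 286 bp long in NSC and 204.5 bp in NSC Bmi1Over, beside 355 and 370 bp over the whole lists. The median fold enrichment at these genes was 4.12 in NSC and 4.68 in NSC Bmi1Over, beside 4.06 and 4.80 over the whole lists. The smallest fold enrichment of any peak was 3.52 in the NSC list and 4.03 in the NSC Bmi1Over list, so weaker places could be listed in NSC alone. Of the 24 NSC peaks, 11 (45.8%, beside 47.5% of the whole list) were below that higher limit, including 7 of the 8 at Dach2, 3 of the 10 at Dach1, 1 of the 3 at Eya4 and none at Eya2. The peak lists hold no read totals, but the study's methods give ChIPSeq read totals for each group's replicates, without saying which was kept. Read number was among the study's stated grounds for discarding the weaker replicates, with quality scores and fingerprint plots. The larger total was higher for NSC than for NSC Bmi1Over, and the smaller was lower. The part of depth in these differences was not tested.

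Promoter peaks summed to 5232 bp at Dach1, 3230 bp at Eya2, 1816 bp at Eya4 and 295 bp at Dach2 in NSC, beside a median of 1262 bp over the 1958 marked protein-coding genes. In NSC Bmi1Over they summed to 650 bp at Eya2, 507 bp at Dach1 and 200 bp at Eya4, below the median of 984 bp over 977 marked genes. Some of the sine oculis genes were marked more broadly. Six6 had a single NSC peak of 20834 bp with a fold enrichment of 9.16. The peaks of Six2 summed to 16172 bp and those of Six3 to 20866 bp.

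Six4 resembled the Eya genes more, with 2311 bp in NSC and 232 bp in NSC Bmi1Over, and Six5 had no promoter peak. Of the 23 other genes of the network, Pax2, Pax3, Skor1, Skor2 and Gdnf had promoter peaks in both lists and Tshz3 in NSC alone. All of these but Tshz3 were at 14 reads or fewer in every library. Tshz3, marked by 5 short peaks summing to 1618 bp, was counted at 8.52 and 8.11 CPM in NSC and at 4.28 and 9.73 CPM in the libraries labelled NSC Bmi1Over.

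The 2 members without any peak, Eya3 and Eya1, were the 2 highest per length in NSC, and the 4 marked members were the 4 lowest. Among the marked genes in NSC, Dach1 had the largest summed length of promoter peaks but a lower per-length level than Eya2 and Eya4. Dach2 had the smallest sum and the lowest level. Among the sine oculis genes, Six3 had 20866 bp of peaks and a per-length level of 2.57 and 1.41 in NSC while Six6 had 20834 bp and 0 reads. With few genes of related families and ChIPSeq from 1 library per group, this is a description.

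**Figure D5:**
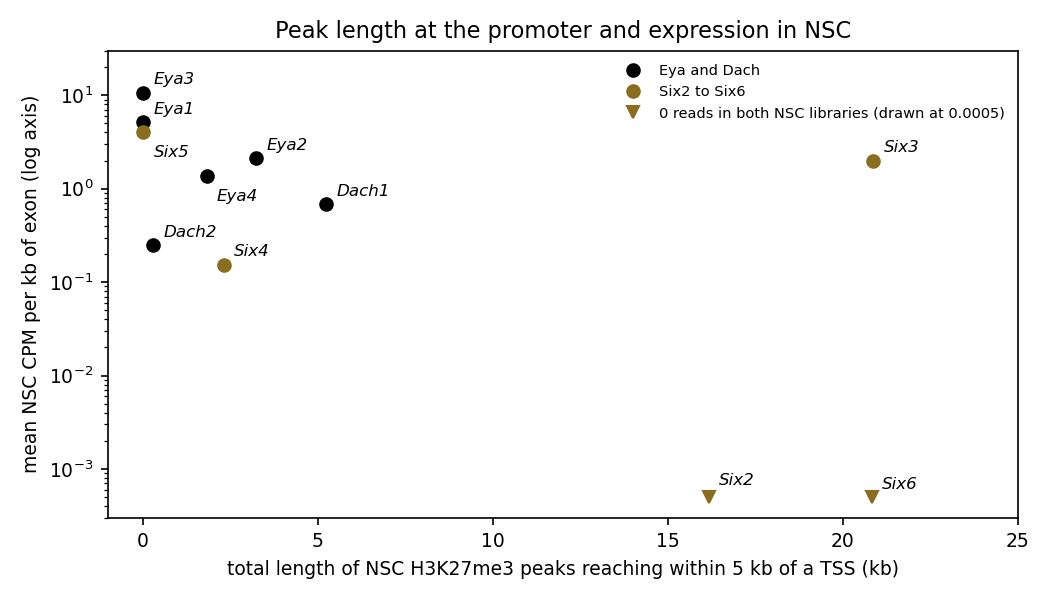
Total length in kb of the NSC H3K27me3 peaks that reach within 5 kb of a TSS (horizontal axis) and mean NSC level in CPM per kilobase of exon (vertical axis, log) for the Eya and Dach genes (black) and Six2 to Six6 (brown), with triangles at an arbitrary low level for Six2 and Six6, which had 0 reads. The Eya and Dach genes have 0 to 5232 bp of such peaks, while Six2, Six3 and Six6 have 16172 bp or more.

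Set side by side, Eya2 kept 2 of its 3 marked places and had a library on either side of NSC. Dach1 went from 10 peaks to 3 and Eya4 from 3 to 1, with log2 fold changes of -0.30 and -0.08, neither called. Eya1, without a peak in either list, had a log2 fold change of -0.54, also not called.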

How the data were processed

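RNASeq was measured in 2 NSC cultures and 2 cultures labelled NSC Bmi1Over, and H3K27me3 in the 1 ChIPSeq library per group that the study kept of 2. The authors trimmed reads with Trim Galore, aligned RNA reads to mm10 with STAR and deposited raw read counts per gene; the unstranded counts were used. ChIP reads were aligned with Bowtie2 2.3.4, keeping unique alignments, and broad peaks were called with MACS2 in each library. The deposited peak lists give a fold enrichment, a ratio to background, and the −log10 of a p-value and q-value, whereas the deposited display score was not used.

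The annotation behind the counts is not given in the sources used here, and 50462 of 50686 identifiers matched GENCODE vM21 on the same build. Reads outside genes stayed out, which left 65.9% to 72.2% counted. After filterByExpr, 15521 genes were normalised by TMM and fitted in R 4.3.3 with edgeR 4.0.16 by quasi-likelihood, all p-values being adjusted over all genes. DESeq2 1.42.0 was an alternative, with other filters, scalings, left-out libraries and peak limits. Exact permutation of 2 against 2 libraries cannot go below p = 0.333. Peaks were read in Python 3.11.15. The steps were tested on simulated data. Genes given values were the members, the sine oculis genes (some listed genes are not reported here), other network genes with an unadjusted p under 0.05 or a promoter peak, and the 3 nearest in pattern to Eya2 and Eya3, while Pax6 and the marker genes named were added after their values were seen. The members and lists were chosen with earlier results of these data known.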

Additional observations from a re-analysis of the deposited data

How the results depend on the processing

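Of 78 refitted log2 fold changes of the 6 genes, 70 kept their direction and their side of the threshold. Dach2 turned to 0.018 when counts were thinned to the shallowest library. Leaving out 1 library at a time gave -0.83 to 0.26 for Dach2, -0.15 to 1.04 for Eya2, -0.21 to 0.065 for Eya4, -0.60 to -0.10 for Dach1 and -1.08 to -0.18 for Eya1. The turns in sign came without NSC Bmi1Over replicate 1 for Eya2 and Dach2 and without replicate 2 for Eya4. The count of Eya and Dach genes called was 1 without a filter beyond 1 read (Eya1, edgeR adjusted p 0.00704) and 0 to 2 with a library left out. Over all genes, the calls were 334 (94.3% higher) in the main setting, 537 (64.4% higher) with library size alone, where the median of all genes moved to -0.165, 1496 with the DESeq2 Wald test, 2356 without the filter, and 176 to 2546 with a library left out, where 76.7% to 97.7% were higher. In the other network genes, 1 was called by DESeq2 (Slc12a2), 2 without the filter (Six5 and Slc12a2) and 0 to 1 with a library left out. Without the filter, 28541 genes were tested, with the 6 genes and 28 other network genes among them. The cause of these differences was not tested.

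The replicates share only a number, with a correlation of 0.235 between the deviations of same-numbered libraries over 2 pairs. A replicate block gave 3459 called genes of 15521 tested (70.3% higher). Among the 6 genes it called 1 (Eya1, log2 fold change -0.60, edgeR adjusted p 0.0193). Of the 21 other network genes tested it called 4 (Six5, Ncor1, Slc12a2 and Tshz1).

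In NSC, 0 of the 6 genes kept a promoter or gene-body peak at a fold enrichment of at least 5. In NSC Bmi1Over, 1 (Eya2) kept either kind at that limit, 0 kept either with peaks of at least 1000 bp, 2 kept a gene-body peak at a −log10 q of at least 3, and 1 kept a promoter peak within 1 kb. With NSC peaks held to the smallest fold of the other list, an alternative chosen after seeing the data, 3 genes kept a promoter peak in NSC and 4 a gene-body peak. The shares of all protein-coding genes at these limits are not given here. Over the whole lists, the median fold enrichment was 4.06 in NSC and 4.80 in NSC Bmi1Over. Dach2 had 24 to 167 reads per library, the fewest of the 6 genes.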
